A study of Mus musculus with 18 samples.

Results

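The response of the liver to chronic TCDD was examined in mice whose hepatocytes lack the aryl hydrocarbon receptor (AHR). All 6 libraries labelled dHep were used, out of 18 in the series: 3 livers of mice given TCDD (mouse numbers 4, 10 and 16) against 3 of mice given vehicle (mouse numbers 3, 9 and 15). Values below follow that order of mouse numbers. The dHep mice carry the AhRΔHep genotype, in which Ahr is deleted in hepatocytes. The other genotypes served for comparison, each with 3 TCDD and 3 vehicle mice: AhRfl/fl mice, labelled WT, with a floxed Ahr and no deletion named, and AhRΔHSC mice, labelled dHSC, in which Ahr is deleted in hepatic stellate cells. All groups were females on a C57BL/6 background. They received by gavage either TCDD at 100 µg/kg or peanut oil once every 4 days, and livers were collected at day 92. The Cre driver and the deleted part of Ahr are not given in the sources used here. Poly-A RNA of whole liver was sequenced.

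TCDD, the dioxin tetrachlorodibenzo-p-dioxin, is a long-lived ligand of AHR, a transcription factor that on ligand binding enters the nucleus, pairs with ARNT and binds DNA at sites with the core GCGTG. Its best known targets are the cytochromes Cyp1a1, Cyp1a2 and Cyp1b1 and its own repressor Ahrr. Hepatocytes make up most of the liver's mass, but AHR is also present in Kupffer cells, other leukocytes, endothelial cells and stellate cells, so a liver without hepatocyte AHR still holds cells that can bind TCDD. Major urinary proteins (MUPs) are small secreted pheromone carriers made by hepatocytes from a cluster of near-identical genes, under control of growth hormone.

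Total counts of the 6 dHep libraries ranged from 15183143 to 27240877. Outlying libraries numbered 5 of 18: they lay at 1 end of the first principal component and gave more than 2% of reads to genes that code for no protein. These included 2 of the 3 dHep vehicle libraries (9 and 15) and 1 of the 3 dHep TCDD libraries (16). Some results, those of every gene that passed the threshold in dHep livers included, are therefore also given without those 5 libraries. That leaves 1 vehicle and 2 TCDD livers of the dHep genotype, and the lone vehicle liver is then assumed to vary like the other groups. Of the defining hepatocyte genes, Alb, encoding albumin, stood at 77676, 54382 and 121799 CPM (counts relative to the TMM-scaled library size) in dHep vehicle livers and 58997, 76797 and 74487 CPM in dHep TCDD livers. WT vehicle liver 1 also held skeletal muscle transcripts, at a summed level of 2243 CPM for the 14 listed muscle genes, against 1.38 to 4.37 CPM in the 6 dHep livers. Ahr itself was read at 56.8, 28.1 and 29.1 CPM in dHep vehicle livers, 94.9, 60.8 and 29 CPM in dHep TCDD livers and 32.7, 51.8 and 70.0 CPM in WT vehicle livers. These ranges overlapped, and since the counts cover the whole gene and the deleted part is not given, they do not check the deletion. Among the list genes below, 60 had no count in any of the 18 libraries, and 31 of those 60 are overlapped by another annotated gene along 100% of their length, so their 0 is no measure of absence.

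The number of genes that rose was 4 and that fell 6 with TCDD in livers without hepatocyte AHR, of 14835 genes tested (0.027% higher and 0.0404% lower, Benjamini-Hochberg adjusted p under 0.05 in edgeR's quasi-likelihood fit). The genes that rose were the collagenase Mmp13, the secreted metalloprotease Adamdec1, the apolipoprotein L gene Apol7c and its neighbouring pseudogene Gm8221. Those that fell were Mup17, 3 MUP pseudogenes (Mup-ps12, Mup-ps14 and Mup-ps10), the transcript Gm13775 that lies inside the MUP cluster, and the ubiquitin ligase gene Lnx1. In WT livers the same treatment raised 509 genes (3.43%) and lowered 289 (1.95%), and in dHSC livers it raised 254 (1.71%) and lowered 125 (0.843%). These counts are not themselves a test of a difference between genotypes. The number of calls in dHep livers was 0 without the libraries that stood apart (552 genes at unadjusted p under 0.05), 0 when the 6 dHep libraries were fitted alone (644 genes at unadjusted p under 0.05), and 84 with DESeq2. All 10 genes kept their direction in each of the 15 alternative fits.

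Mmp13, which cleaves fibrillar collagen, was read at 0.524, 1.49 and 0.453 CPM in dHep vehicle livers and 9.39, 6.34 and 11 CPM in dHep TCDD livers. Every treated liver lay above every control, a 10.8-fold rise (log2 change 3.43 ± 0.48 SE, n = 3 against 3, edgeR adjusted p = 0.00943). Without the libraries that stood apart the log2 change was 3.90 (edgeR adjusted p = 0.182). In WT livers Mmp13 went from 0.172, 0.168 and 0.459 CPM to 23.2, 17.7 and 25.5 CPM. That change was larger on the log2 scale (6.34), but the difference between the genotypes did not pass the threshold (edgeR adjusted p = 0.061). In the series as a whole, the 3 dHep TCDD livers lay above all 9 vehicle livers and below all 6 TCDD livers of the other genotypes.

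Adamdec1, a protease known from tissue macrophages and stromal cells, stood at 6.55, 9.4 and 2.87 CPM in vehicle and 30.4, 21.3 and 37.8 CPM in TCDD livers of the dHep genotype. The groups did not overlap, and the gene rose 4.74-fold (log2 change 2.24 ± 0.39 SE, n = 3 against 3, edgeR adjusted p = 0.0471; 1.99 without the libraries that stood apart, adjusted p = 0.984). Apol7c (chromosome 15, 77524852 to 77533316, GRCm38) stood at 2.32, 7.32 and 0.755 CPM in vehicle and 64.4, 28.6 and 40.2 CPM in TCDD livers, a 12.8-fold rise (log2 change 3.67 ± 0.59 SE, n = 3 against 3, edgeR adjusted p = 0.0259). Treated liver 4 was within the range of the WT TCDD livers, at 58.9, 59.1 and 66.8 CPM, and livers 10 and 16 were below it, while the dHep vehicle livers lay above all WT vehicle livers, at 0.401, 0.112 and 0.631 CPM. Gm8221 (chromosome 15, 77621834 to 77626637) went from 0.712, 1.37 and 0.377 CPM to 18.6, 7.85 and 4.15 CPM and rose 12.3-fold (log2 change 3.62 ± 0.57 SE, n = 3 against 3, edgeR adjusted p = 0.0259). Of its distinct 100-base stretches, 8.8% also occur in another gene, most often Apol7c. The log2 changes of Apol7c and Gm8221 were 4.32 and 4.21 without the libraries that stood apart (edgeR adjusted p = 0.189 and 0.189). Among the 9 tested apolipoprotein L genes these were the only calls, and the list's median log2 change was 0.59, against -0.01 over all genes tested.

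**Figure D1:**
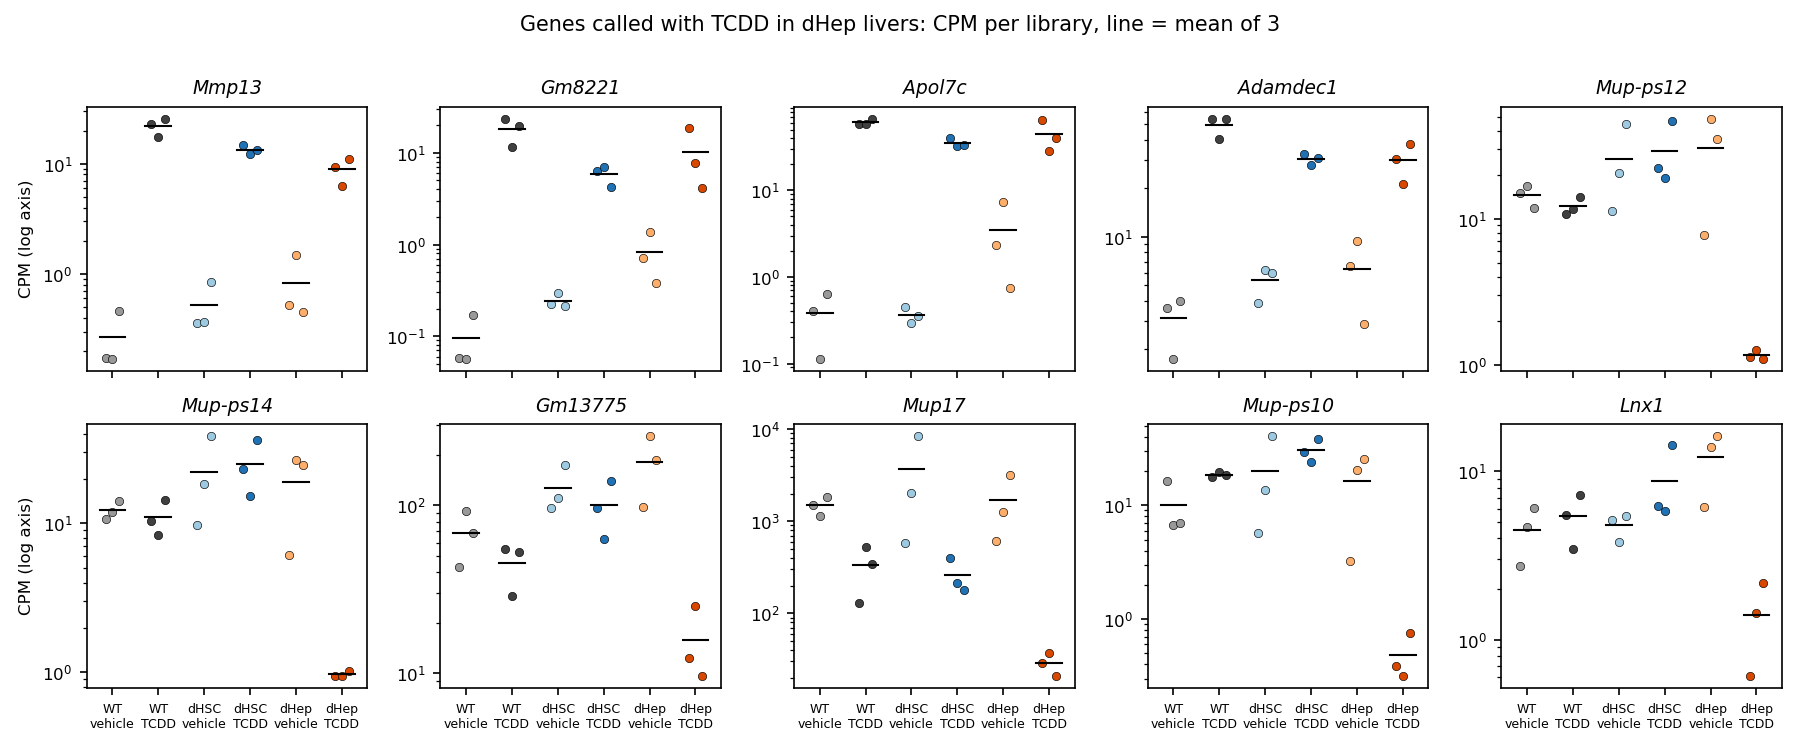
CPM (log axis) of the 10 genes called with TCDD in dHep livers, 1 point per library in each of the 6 groups, with the mean of 3 as a line. The 4 genes that rose also passed the threshold in WT and dHSC livers, whereas for the 6 genes that fell the 3 dHep TCDD libraries lie below all 15 other libraries of the series.

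The 6 genes that fell had a shared feature: in each, the 3 dHep TCDD livers were the 3 lowest of the 18. Mup17, which encodes a major urinary protein, fell from 608, 1260 and 3220 CPM to 29, 37.2 and 20.7 CPM (log2 change -5.87 ± 0.94 SE, n = 3 against 3, edgeR adjusted p = 0.0259). No other library of the series was under 130.6 CPM. Of the distinct 100-base stretches of Mup17, 59.4% occur in another gene, so its counts are uncertain and depend on how reads shared between copies were assigned. Its log2 change without the libraries that stood apart was -4.20 (edgeR adjusted p = 0.301).

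The 3 MUP pseudogenes that fell are unprocessed copies, which hold no intact coding sequence but lie among the coding genes. Mup-ps12 (chromosome 4, 61452244 to 61454952) stood at 7.68, 48.2 and 35.1 CPM in dHep vehicle and 1.13, 1.26 and 1.09 CPM in dHep TCDD livers (log2 change -4.70 ± 0.65 SE, n = 3 against 3, edgeR adjusted p = 0.00943). In WT livers the groups overlapped, at 15, 16.7 and 11.8 CPM with vehicle and 10.7, 11.7 and 14 CPM with TCDD. Mup-ps14 went from 6.18, 26.5 and 24.5 CPM to 0.952, 0.942 and 1.02 CPM (log2 change -4.28 ± 0.60 SE, n = 3 against 3, edgeR adjusted p = 0.00943), and Mup-ps10 from 3.26, 20.3 and 25.4 CPM to 0.389, 0.314 and 0.748 CPM (log2 change -5.08 ± 0.82 SE, n = 3 against 3, edgeR adjusted p = 0.0259). For all 3 the response in dHep livers differed from that in WT livers in the fit of all 18 libraries. The differences were -4.45, -4.13 and -5.97 on the log2 scale in the order Mup-ps12, Mup-ps14 and Mup-ps10 (edgeR adjusted p = 0.0159, 0.016 and 0.0123). They rest on the same dHep controls as the changes within dHep. In each pseudogene, as in Mup17, the vehicle libraries 9 and 15 that stood apart held the highest dHep values, and vehicle liver 3 the lowest of the controls. Without those libraries the log2 changes were -2.68, -2.69 and -3.17, and none passed the threshold (edgeR adjusted p = 0.182, 0.189 and 0.507). Their counts carry the same uncertainty as those of Mup17, since 43.6%, 56.1% and 32.6% of their 100-base stretches, in the same order, occur in another gene.

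Gm13775 (chromosome 4, 61783123 to 61801286), annotated as a processed transcript, fell from 97.8, 258 and 187 CPM to 12.4, 25.2 and 9.59 CPM (log2 change -3.52 ± 0.50 SE, n = 3 against 3, edgeR adjusted p = 0.00943). The log2 change was -2.38 without the libraries that stood apart (edgeR adjusted p = 0.602). Only 9.82% of its 100-base stretches occur in another gene, fewer than for any of the called MUP genes. Lnx1, on chromosome 5 and thus outside the MUP cluster, encodes an E3 ubiquitin ligase that binds Numb. It fell from 6.18, 14 and 16.2 CPM to 0.606, 1.44 and 2.18 CPM (log2 change -3.12 ± 0.54 SE, n = 3 against 3, edgeR adjusted p = 0.0471), while WT livers held 2.75, 4.65 and 6.08 CPM with vehicle and 5.54, 3.47 and 7.28 CPM with TCDD. Vehicle liver 3 was again the lowest control, and without the libraries that stood apart the log2 change was -2.61 (edgeR adjusted p = 0.698). Its response differed between dHep and WT by -3.39 on the log2 scale (edgeR adjusted p = 0.0381).

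Across the whole MUP list, 28 of 49 genes were tested. Of these 4 were called lower, 19 had an unadjusted p under 0.05 and were lower, against 4.39% of all genes tested, and none was higher at that level, against 2.31%. The median log2 change was -3.24 in dHep, -1.80 in WT and -2.45 in dHSC livers. The values differed by kind of gene. Among the 19 tested coding genes the median was -3.03 in dHep, -2.30 in WT and -3.43 in dHSC livers, with 1, 5 and 11 called lower. Among the 9 tested pseudogenes it was -3.47 in dHep but -0.26 in WT and -0.46 in dHSC livers, where none was called. The test of the difference against WT called 3 of those 9 pseudogenes, more negative in dHep (0.506% of all genes), and 1 of the 19 coding genes, Mup3, more positive in dHep (0.351%).

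The MUP genes also differed by position on chromosome 4. In the first stretch of the cluster (GRCm38, 60066469 to 61782269), 23 of 24 tested MUP genes had a log2 change below 0 in dHep livers and 19 had an unadjusted p under 0.05. In the second stretch (61957149 to 62150863), Mup-ps19, Mup20, Mup3 and Mup21 had log2 changes of 0.90, 1.11, -0.71 and -0.06, none with an unadjusted p under 0.05. The antisense genes Gm12909 and Gm12910, which lie in that stretch, had log2 changes of -2.25 and -1.86 and overlapped between groups. Of 21 tested genes within 1 Mb on either side, 1 had an unadjusted p under 0.05, with a median log2 change of -0.07. This division of the cluster was made after the values were seen. The 2 parts also differed in shared sequence. For tested MUP genes of the first, 24.2% (Mup-ps13) to 100% (Mup19) of the 100-base stretches occur in another gene. In the second it was 76.7% for Mup-ps19, 38.8% for Mup20 and 4.5% for Mup21. Counts of near-identical copies are not independent of each other, and the part of shared reads in the difference by position was not tested. Mup3, a coding gene of the second stretch, shares 2.23% of its 100-base stretches with another gene. It stood at 3574, 1581 and 4137 CPM in dHep vehicle and 1230, 1864 and 2572 CPM in dHep TCDD livers, which overlap, but fell from 2213, 4153 and 5262 CPM to 62.2, 173 and 92.8 CPM in WT livers (log2 change -5.15, edgeR adjusted p = 3.24e-04). The difference between the genotypes was 4.43 on the log2 scale (edgeR adjusted p = 0.0215). Within the cluster, in the fit of all 18 libraries, Mup3 changed with TCDD in WT and not detectably in dHep livers. In that fit 3 pseudogenes changed in dHep and not detectably in WT livers. Their log2 changes in dHep were smaller without the libraries that stood apart, at -2.68 (Mup-ps12), -2.69 (Mup-ps14) and -3.17 (Mup-ps10). None of the 3 was called when the 6 dHep libraries were fitted alone.

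**Figure D2:**
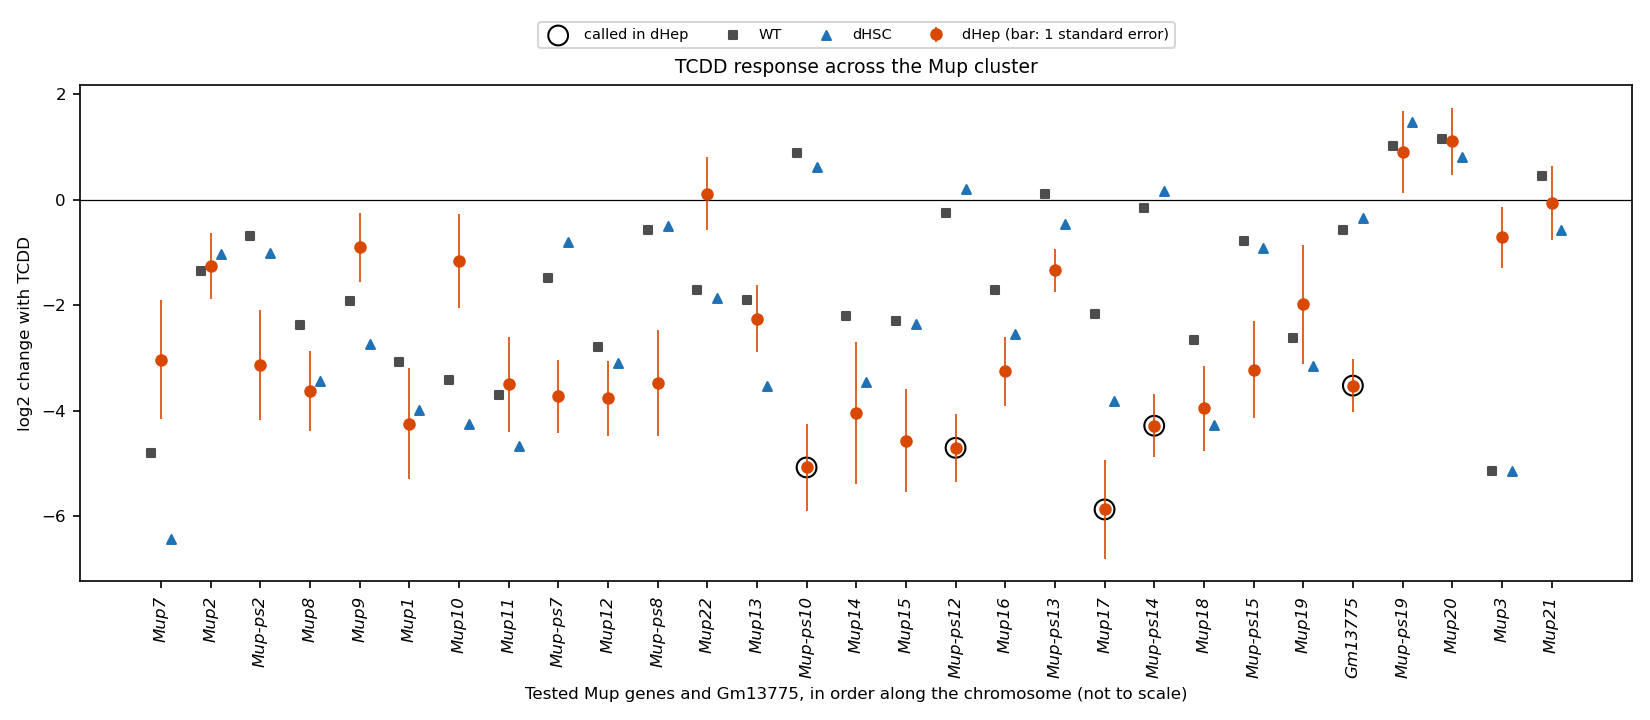
Log2 change with TCDD (y axis) of the 28 tested MUP genes and Gm13775 in their order along the chromosome, in dHep (circles, bars of 1 SE), WT (squares) and dHSC livers (triangles). The 5 ringed genes called in dHep lie in the first stretch or at its end, with the 3 called pseudogenes between -0.26 and 0.89 in WT, while Mup3 is near -5.15 in WT and -0.71 in dHep.

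The MUP pseudogene Mup-ps7 was also lower without passing the threshold (log2 change -3.73 ± 0.69 SE, n = 3 against 3, edgeR adjusted p = 0.0733), at 0.712, 1.61 and 2.49 CPM with vehicle and 0.0866, 0.188 and 0.068 CPM with TCDD. Among genes averaging 1 CPM or more, 5 further MUP genes followed by p in the lower direction, with edgeR adjusted p of 0.0757 for Mup12, 0.0909 for Mup16, 0.1 for Mup18, 0.116 for Mup8 and 0.126 for Mup15. TCDD livers below all vehicle livers were a condition for naming these genes, one that 5.03% of all genes tested met. The remaining gene of that rank was Ccl24, an eosinophil chemokine, at 3.07, 3.93 and 3.25 CPM with vehicle and 0.519, 0.565 and 1.36 CPM with TCDD (log2 change -2.07 ± 0.46 SE, n = 3 against 3, edgeR adjusted p = 0.165). Its WT values, 2.92, 1.96 and 3.39 CPM and 3.25, 3.13 and 5 CPM, did not separate, and it fell in dHSC livers (log2 change -2.40, edgeR adjusted p = 0.00909).

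No AHR target gene passed the threshold in dHep livers, though all those tested had a log2 change above 0. Of 12 listed genes 9 were tested. Of these, 6 had an unadjusted p under 0.05 (2.31% of all genes were higher at that level), and in 7 the groups did not overlap (4.56% of all genes). The median log2 change was 1.18 in dHep, 3.76 in WT and 3.26 in dHSC livers. Without the libraries that stood apart 3 of the 9 had an unadjusted p under 0.05, with a median of 1.78. The response was called more negative in dHep than in WT for 7 of the 9 (0.506% of all genes) and than in dHSC for 3 of the 9 (0.276%). The 2 not called against WT were Gsta2, with a log2 change of 0.59 in dHep and 0.43 in WT livers, and Aldh3a1, which had no count in dHep vehicle livers and 0.389, 0.314 and 0.068 CPM in dHep TCDD livers, too few for a fold. Cyp1a1, the classical AHR-induced cytochrome, stood at 78.9, 86.9 and 25.9 CPM in dHep vehicle and 304, 283 and 334 CPM in dHep TCDD livers (log2 change 2.26 ± 0.69 SE, n = 3 against 3, edgeR adjusted p = 0.473). The corresponding WT values were 33.2, 5.04 and 8.04 CPM and 5873, 8328 and 5090 CPM, and the response differed by -6.44 on the log2 scale (edgeR adjusted p = 0.00582). So the treated dHep livers held more Cyp1a1 than any of their controls and far less than any treated WT liver.

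Cyp1b1, a CYP1 enzyme that in liver is known mainly from non-parenchymal cells, had the lowest p of the list, at 10.7, 21.2 and 3.92 CPM with vehicle and 101, 89.6 and 71.9 CPM with TCDD (log2 change 2.87 ± 0.57 SE, n = 3 against 3, edgeR adjusted p = 0.0909). WT livers went from 2.52, 1.01 and 2.7 CPM to 1397, 1037 and 1223 CPM, a difference in response of -6.33 (edgeR adjusted p = 0.00156). Ahrr, the AHR repressor, went from 1.54, 2.14 and 0.679 CPM to 6.15, 4.33 and 4.42 CPM (log2 change 1.76 ± 0.48 SE, n = 3 against 3, edgeR adjusted p = 0.389), against 0.115, 0.056 and 0.517 CPM and 61.2, 63 and 60.6 CPM in WT livers. In the vehicle groups, all 3 dHep vehicle livers were above all 3 WT vehicle livers for Cyp1b1 and Ahrr, and 2 of 3 were for Cyp1a1. That difference between controls was not tested. Tiparp, an AHR-induced ADP-ribosyltransferase, went from 8.5, 10.1 and 7.17 CPM to 14.2, 18.2 and 19.6 CPM (log2 change 1.01 ± 0.34 SE, n = 3 against 3, edgeR adjusted p = 0.523), and Nqo1, a quinone reductase, overlapped between groups (log2 change 0.28 ± 0.31 SE). Cyp1a2, which is expressed in hepatocytes, also overlapped, at 256, 344 and 473 CPM with vehicle and 284, 513 and 447 CPM with TCDD, while it rose in WT livers (log2 change 3.76, edgeR adjusted p = 9.04e-04).

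The promoters of 2 AHR targets and of 2 genes that rose are shown to compare them for the AHR core. They run from 250 bases before to 50 after the start site (RefSeq, GRCm38.p6, 5′ to 3′ on the gene's strand). Capitals mark matches to GCGTG on either strand, a sequence that 32.4% of 32851 promoters of that length hold.
Cyp1a1 (chr9:57697363-57697662, plus strand): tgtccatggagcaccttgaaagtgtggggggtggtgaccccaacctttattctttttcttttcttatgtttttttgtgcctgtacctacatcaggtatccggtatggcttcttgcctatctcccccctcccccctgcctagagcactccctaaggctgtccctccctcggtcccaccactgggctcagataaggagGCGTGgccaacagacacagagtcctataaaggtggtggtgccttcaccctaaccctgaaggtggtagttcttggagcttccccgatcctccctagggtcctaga
Cyp1b1 (chr17:79715012-79715311, minus strand): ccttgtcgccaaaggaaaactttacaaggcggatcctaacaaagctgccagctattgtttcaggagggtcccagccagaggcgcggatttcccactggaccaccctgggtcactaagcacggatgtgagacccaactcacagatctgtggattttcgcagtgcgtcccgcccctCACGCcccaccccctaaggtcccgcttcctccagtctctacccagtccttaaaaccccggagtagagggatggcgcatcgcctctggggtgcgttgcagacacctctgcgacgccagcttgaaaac
Mmp13 (chr9:7272264-7272563, plus strand): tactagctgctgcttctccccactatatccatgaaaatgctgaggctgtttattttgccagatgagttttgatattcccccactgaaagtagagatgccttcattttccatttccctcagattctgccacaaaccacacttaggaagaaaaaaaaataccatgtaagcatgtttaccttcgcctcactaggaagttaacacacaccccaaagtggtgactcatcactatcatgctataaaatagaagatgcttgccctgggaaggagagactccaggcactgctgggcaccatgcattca
Apol7c (chr15:77533266-77533565, minus strand): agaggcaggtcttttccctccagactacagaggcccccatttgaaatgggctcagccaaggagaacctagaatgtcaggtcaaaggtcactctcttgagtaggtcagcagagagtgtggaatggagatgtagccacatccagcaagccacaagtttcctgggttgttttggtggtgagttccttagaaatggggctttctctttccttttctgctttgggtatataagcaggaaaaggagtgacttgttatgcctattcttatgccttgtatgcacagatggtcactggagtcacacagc
The Cyp1a1 promoter held 1 match, starting 54 bases before the start site, and the Cyp1b1 promoter 1 match, 76 bases before it, read there on the opposite strand as CACGC. Those of Mmp13 and Apol7c held 0. Among genes named below that were higher without passing the threshold, Ccl22 held 1 match, as did at least 1 of the 2 Tnc promoters. The promoters of C5ar1, Csf2rb2, Ms4a4a and Tlr12 held 0. A match, or its lack, describes these letters in this window only.

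Genes of antigen presentation and of immune cells held no call in dHep livers, and their lists differed in how many members had a low p. In bulk liver, more cells of a type and more RNA per cell cannot be told apart. Of 13 tested dendritic cell and MHC class II genes, 7 were higher at an unadjusted p under 0.05 (2.31% of all genes) and 1 lower (4.39%). None passed the threshold. Log2 changes ran from -2.56 to 1.90, with 11 of 13 above 0. The median was 1.27 (1.94 in WT and 1.25 in dHSC livers). H2-Eb1, a chain of the MHC class II molecule that shows peptides to helper T cells, stood at 61.3, 52.5 and 47.9 CPM with vehicle and 120.0, 116 and 230.1 CPM with TCDD (log2 change 1.53 ± 0.34 SE, n = 3 against 3, edgeR adjusted p = 0.156). H2-Ab1 went from 96.8, 57.5 and 50.5 CPM to 203, 155 and 222 CPM (2.84-fold, edgeR adjusted p = 0.25). For both, every treated liver lay above every control. Liver 16, which stood apart, was the highest treated liver for both, and without the libraries that stood apart the log2 changes were 0.95 and 0.89. The summed level of all 14 listed genes was 244 to 381 CPM with vehicle and 645 to 1071 CPM with TCDD, while Kupffer cell markers summed to 660 to 945 against 709 to 989 CPM and T and NK cell markers to 10.75 to 23.4 against 12.98 to 47.8 CPM, both overlapping. At an unadjusted p under 0.05, 2 of 13 tested Kupffer cell markers were higher and 1 lower. Of 13 tested T and NK cell markers 3 were higher and 0 lower at that level (2.31% and 4.39% of all genes). Irf8 was listed at 0 in every library and is among the wholly overlapped genes. The part of cell numbers in these values was not tested.

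Genes next by p in the higher direction included several known from myeloid cells, besides Tnc and Cyp1b1. Ccl22, a chemokine of dendritic cells and macrophages, just missed the threshold, at 0.449, 0.952 and 0.755 CPM with vehicle and 3.25, 3.83 and 4.7 CPM with TCDD (log2 change 2.45 ± 0.44 SE, n = 3 against 3, edgeR adjusted p = 0.0523; 3.68 in WT livers). C5ar1, the receptor of the complement fragment C5a, stood at 1.46, 1.84 and 0.528 CPM and 8.27, 6.15 and 10.3 CPM, and Clec4n, the C-type lectin dectin-2 of myeloid cells, at 4.61, 4.76 and 2.19 CPM and 14.6, 8.98 and 19.9 CPM. Ms4a4a went from 0.3, 0.654 and 0.151 CPM to 6.06, 4.52 and 6.26 CPM and Csf2rb2, a receptor subunit for interleukin-3, from 2.96, 3.69 and 1.28 CPM to 16, 10.1 and 11.8 CPM. Their edgeR adjusted p-values were 0.0757, 0.0806, 0.0909 and 0.0909. Treated livers above all controls were a condition for naming the genes of this paragraph, one that 4.56% of all genes tested met. Tlr12, a Toll-like receptor, went from 12.1, 6.96 and 6.57 CPM to 32.8, 27.1 and 20.2 CPM (edgeR adjusted p = 0.0909). It was the one gene of these with a larger log2 change in dHep (1.64) than in WT livers (0.98), a difference that did not pass the threshold (edgeR adjusted p = 0.763).

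Of 12 monocyte and scar macrophage markers, 3 were higher at an unadjusted p under 0.05 (2.31% of all genes), with a median log2 change of 0.64 (1.60 in WT livers). Gpnmb, a glycoprotein of lipid-laden and scar-associated macrophages, stood at 0.599, 7.55 and 0.453 CPM with vehicle and 70.7, 29.6 and 35.2 CPM with TCDD (log2 change 3.98 ± 1.02 SE, n = 3 against 3, edgeR adjusted p = 0.343). Vehicle liver 9, which stood apart, was the highest control. Without the libraries that stood apart the log2 change was 6.38 (edgeR adjusted p = 0.75). Of the neutrophil genes, 1 of 9 was higher at an unadjusted p under 0.05 and the median log2 change was 1.2 in dHep against 5.08 in WT livers. The summed neutrophil level was 7.12 to 26.8 CPM in dHep vehicle, 15.3 to 38.3 CPM in dHep TCDD and 85.2 to 110.8 CPM in WT TCDD livers. Of 20 tested chemokines and cytokines, 5 were higher at that level (median log2 change 0.74), Cxcl16 next after Ccl22 (7.64, 7.67 and 6.94 CPM and 14.7, 12.9 and 21.8 CPM). None of 5 tested B and plasma cell genes and none of 18 interferon-stimulated genes was.

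No scar matrix gene passed the threshold. Of 27 tested, 7 had an unadjusted p under 0.05, all higher (2.31% of all genes were higher at that level). The median log2 change was 0.68 (1.05 in WT and 0.76 in dHSC livers). Without the libraries that stood apart the median was 0.84. Tenascin-C, encoded by Tnc, is laid down in wounds and scars. It stood at 1.24, 3.51 and 0.604 CPM with vehicle and 12.9, 7.53 and 11.2 CPM with TCDD (log2 change 2.56 ± 0.48 SE, n = 3 against 3, edgeR adjusted p = 0.0757), but other annotated genes overlap 77.0% of its length, so its counts are uncertain. Sparc, a collagen-binding matrix protein, went from 66.4, 67.8 and 88.5 CPM to 146, 143 and 178 CPM (log2 change 1.07 ± 0.24 SE, n = 3 against 3, edgeR adjusted p = 0.156). Its log2 change in WT livers was 1.11. Col1a1, the main fibrillar collagen of scar, went from 5.28, 13.9 and 8.08 CPM to 27.4, 25.4 and 24.8 CPM (log2 change 1.51 ± 0.53 SE, n = 3 against 3, edgeR adjusted p = 0.567). The treated dHep livers were tightly grouped and lay below all 3 treated WT livers, at 84, 40.3 and 90.4 CPM.

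Matrix proteases and their inhibitors gave 2 calls, Mmp13 and Adamdec1. At an unadjusted p under 0.05, 5 of 19 tested genes were higher (2.31% of all genes). Their median log2 change was 1.02, against 0.98 in WT livers. Timp1 and Timp3 were listed at 0 in every library and are wholly overlapped. Of 21 activated myofibroblast genes, 4 were higher at that level, with a median log2 change of 0.34 (0.50 in WT livers; 1.04 without the libraries that stood apart). Ccn2, a matricellular protein induced by TGF-beta, stood at 2.58, 3.09 and 1.59 CPM with vehicle and 10.7, 11.2 and 15.3 CPM with TCDD (log2 change 2.35 ± 0.50 SE, n = 3 against 3, edgeR adjusted p = 0.116). Its treated values lay within the range of treated WT livers, at 9.11, 15.4 and 12 CPM. Thbs1, thrombospondin-1, overlapped between groups, at 0.974, 4.7 and 1.51 CPM and 9.87, 3.08 and 8.98 CPM. The summed myofibroblast level also overlapped, with 134 to 488.5 CPM in vehicle and 233 to 406 CPM in TCDD livers. In WT livers that level was 139 to 1108 CPM with vehicle (median 168) and 361 to 461 CPM with TCDD. WT vehicle liver 1 held skeletal muscle transcripts, and its part in the WT median log2 change of 0.50 was not tested. Quiescent stellate cell markers had a median log2 change of 0.16, with 1 of 13 at an unadjusted p under 0.05.

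In the vessels, Vwf, the clotting factor carrier of larger-vessel endothelium, stood at 11.4, 7.67 and 10.6 CPM with vehicle and 49.3, 33.4 and 27.6 CPM with TCDD (log2 change 1.90 ± 0.40 SE, n = 3 against 3, edgeR adjusted p = 0.116). Stab2, the hyaluronan receptor of sinusoidal endothelium, stood at 13.6, 57.1 and 18.8 CPM and 10.4, 8.04 and 11.2 CPM (log2 change -1.59 ± 0.62 SE, n = 3 against 3, edgeR adjusted p = 0.643), with vehicle liver 9 again the highest. Without the libraries that stood apart the log2 changes of Vwf and Stab2 were 1.86 and -0.55. Over the 13 tested endothelial markers 2 were higher and 1 lower at an unadjusted p under 0.05 (2.31% and 4.39% of all genes).

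**Figure D3:**
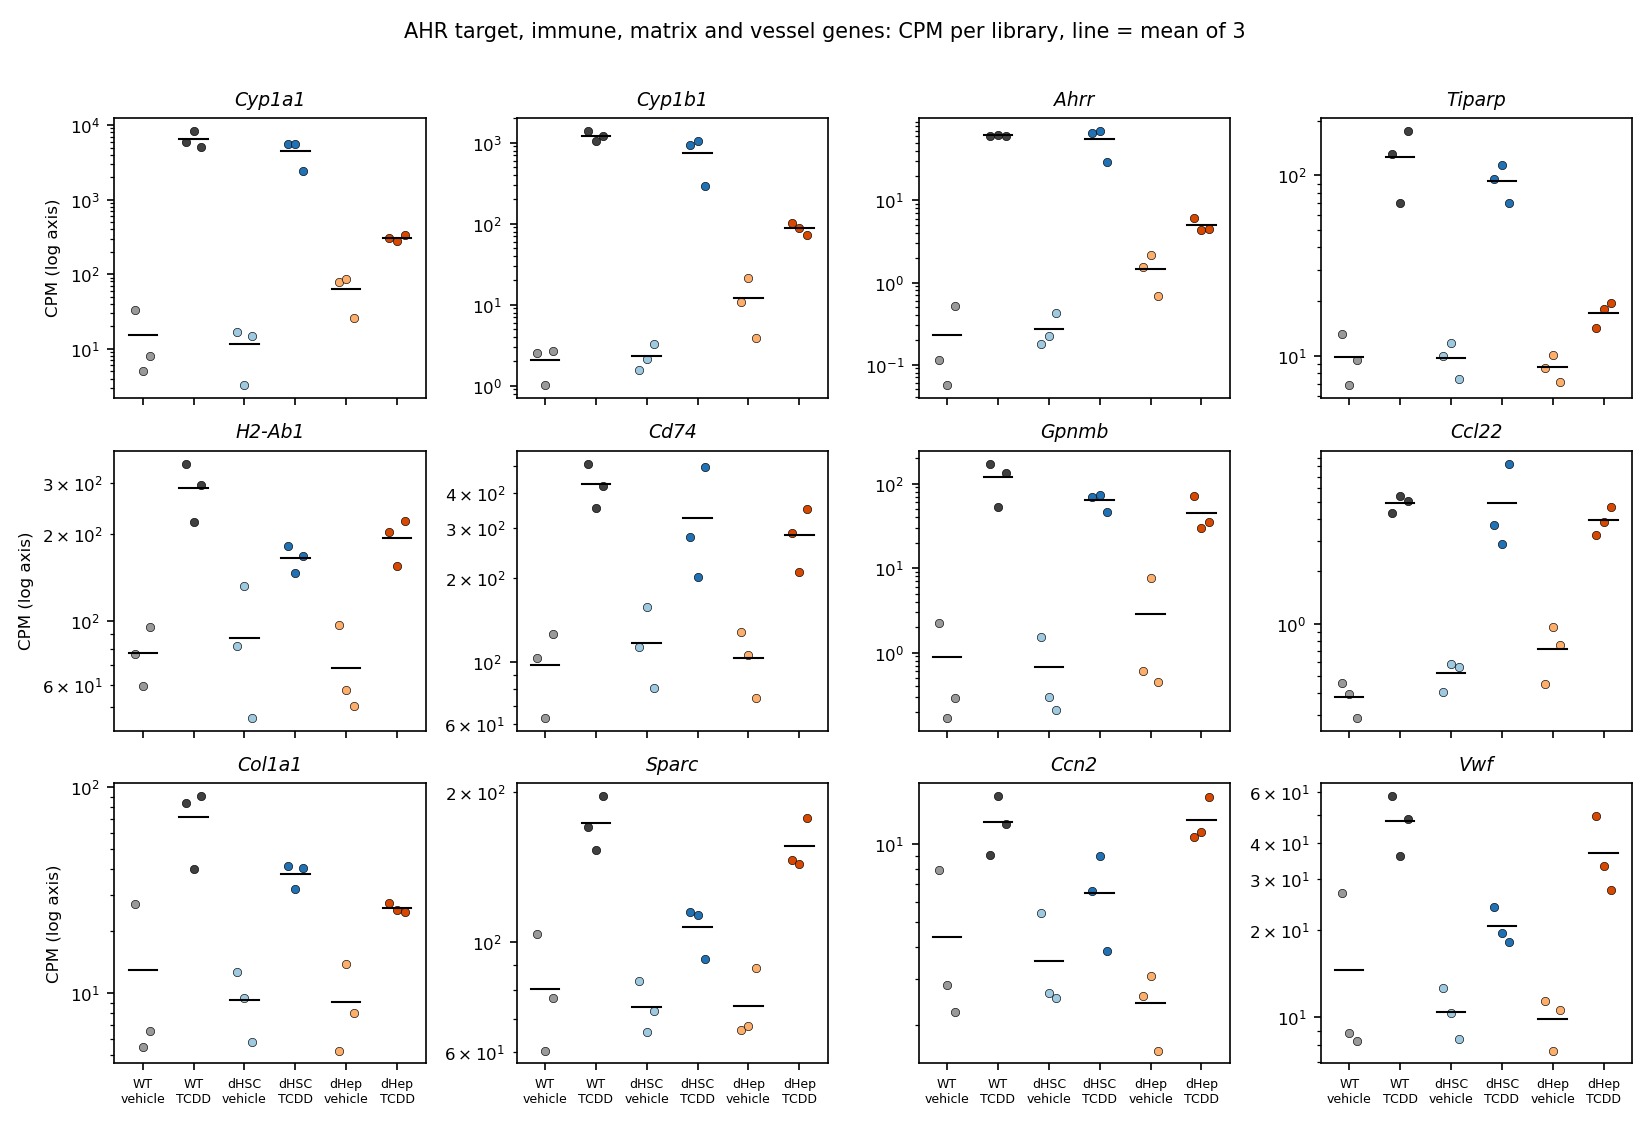
CPM (log axis) of 4 AHR target genes, 4 immune genes, 3 matrix genes and Vwf, 1 point per library in each of the 6 groups, with the mean of 3 as a line. AHR targets in dHep TCDD livers lie between the vehicle livers and the treated livers of the other genotypes, whereas H2-Ab1, Cd74, Ccl22, Sparc, Ccn2 and Vwf overlap the range of the other treated livers.

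Apart from the MUP genes, no hepatocyte gene list held a call. Of 13 hepatocyte identity genes none had an unadjusted p under 0.05 in dHep livers, and their median log2 change was -0.01, against -0.89 in WT and -0.75 in dHSC livers. Female-biased liver genes, which depend on the female pattern of growth hormone, had a median of 0.02 in dHep against -2.64 in WT and -2.25 in dHSC livers, and the difference from WT was called, higher in dHep, for 6 of 19 (0.351% of all genes) and that from dHSC for 1 of 19 (0.155%). The sign of that small dHep median was not stable: it was 0.69 without the libraries that stood apart and -0.80 with a covariate for the non-coding share of each library. Of the 19, 3 were lower in dHep livers at an unadjusted p under 0.05 (4.39% of all genes) and 0 higher (2.31%). Sult2a7, a sulfotransferase and 1 of those 3, stood at 150.2, 85.6 and 214 CPM with vehicle and 41.2, 89.8 and 14.6 CPM with TCDD in dHep livers, whose ranges overlapped. In WT livers it fell from 67.1, 339.6 and 316 CPM to 0.733, 1.37 and 0.91 CPM (log2 change -7.91, edgeR adjusted p = 4.99e-05), a difference of 6.28 (edgeR adjusted p = 0.00513). Medians were 0.03 for fatty acid and triglyceride synthesis, 0.17 for fatty acid oxidation, -0.14 for bile acid genes and -0.19 for glyoxylate and 1-carbon genes, none holding a called gene. Cell cycle genes had a median of 0.54, with 0 of 18 at an unadjusted p under 0.05, and cholesterol synthesis genes 0.47, with 0 of 16.

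Some stress and acute phase genes had low p-values in dHep livers. The amyloid gene Saa2, made by hepatocytes in inflammation, stood at 29, 23.4 and 12.9 CPM and 83.4, 120.4 and 31.9 CPM, and Saa1 at 37, 52.7 and 19.2 CPM and 127, 270.1 and 51.7 CPM (edgeR adjusted p = 0.523 and 0.408). Of the list, 4 of 17 acute phase genes were higher at an unadjusted p under 0.05 (2.31% of all genes). Creld2, a chaperone gene of the unfolded protein response, stood at 15, 18.1 and 22.7 CPM with vehicle and 159, 23.1 and 75.3 CPM with TCDD (log2 change 2.20 ± 0.60 SE, n = 3 against 3, edgeR adjusted p = 0.389), with liver 4 highest by far and liver 10 close to the controls. Its log2 change in WT livers was 0.59. Sdf2l1, another endoplasmic reticulum gene, overlapped at 19.4, 13.8 and 41.9 CPM and 96.8, 40.2 and 102 CPM. In that list 3 of 16 genes were higher at an unadjusted p under 0.05.

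**Figure D4:**
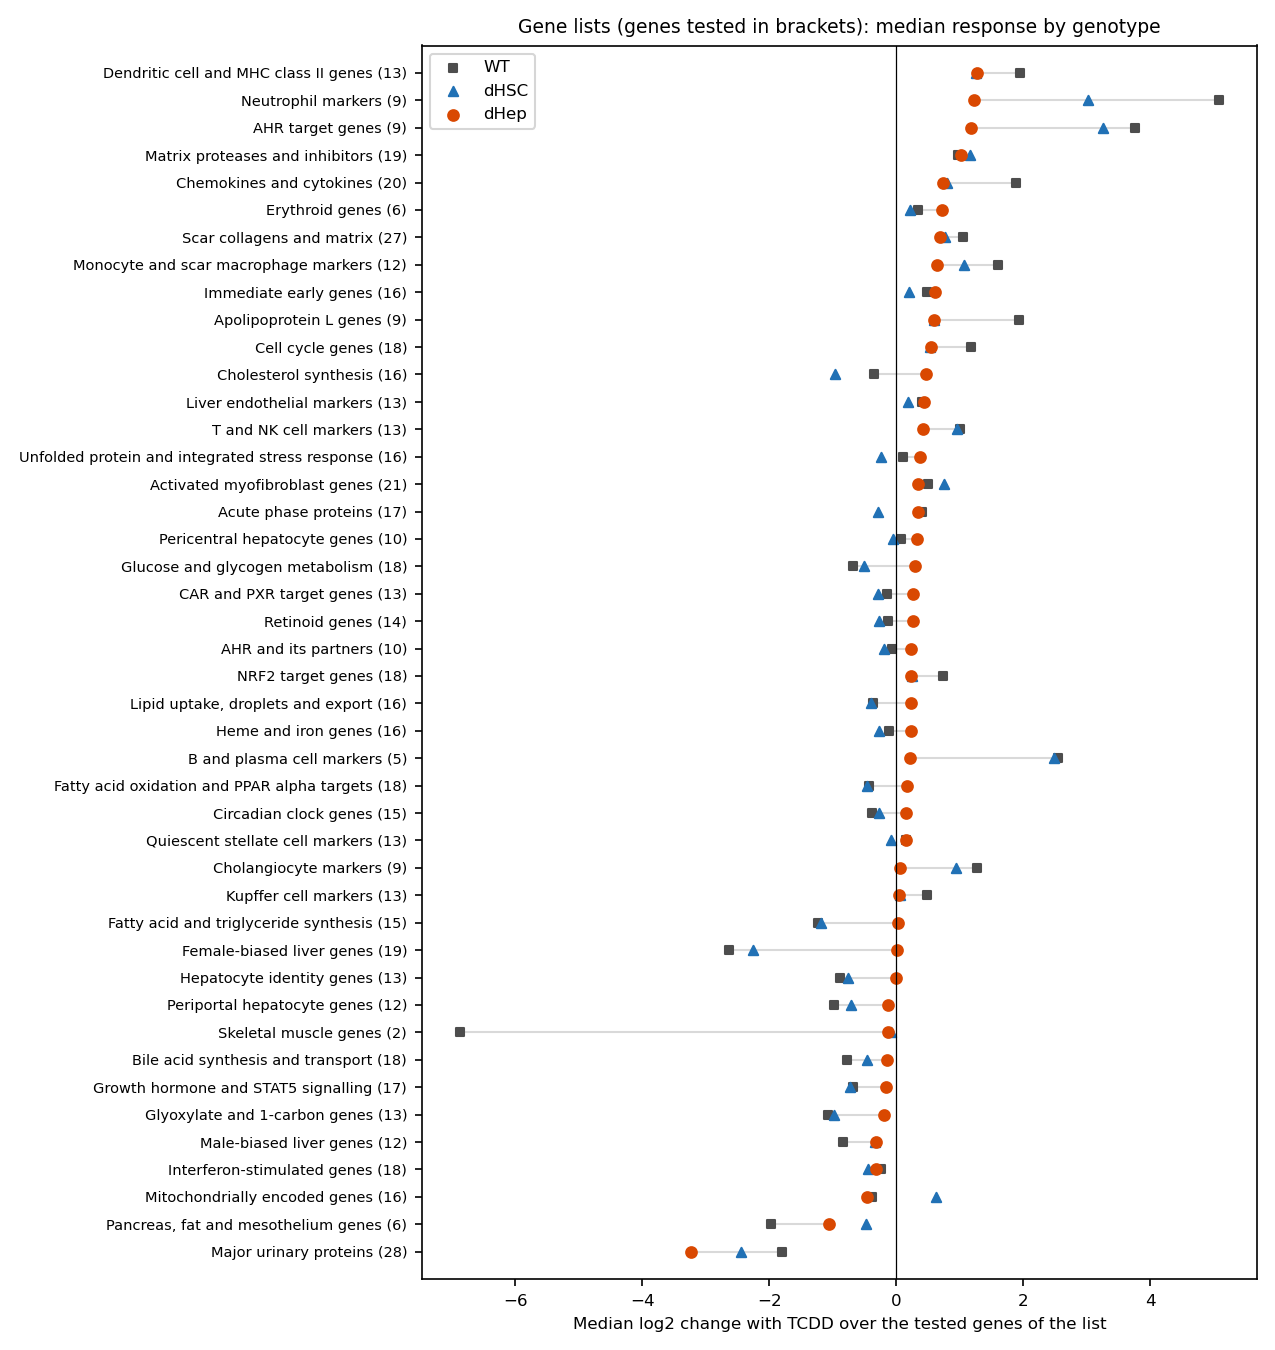
Median log2 change with TCDD (x axis) over the tested genes of each of 44 lists (number tested in brackets), in dHep (circles), WT (squares) and dHSC livers (triangles), ordered by the dHep median. Major urinary proteins lie lowest in dHep at -3.24, dendritic cell and MHC class II genes highest at 1.27, and hepatocyte identity genes at -0.01 in dHep but -0.89 in WT.

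Genes chosen in the WT mice were then read in the dHep mice, which share no library with them. The 509 genes that rose in WT livers had a median log2 change of 2.48 there, 0.53 in dHep and 1.76 in dHSC livers. In dHep livers 397 of the 509 had the same sign, 134 (26.3%) an unadjusted p under 0.05 in the same direction and 11 in the opposite one, and 4 were called. Over all genes tested 2.31% were higher and 4.39% lower at that level. The 289 genes that fell in WT livers had medians of -2.16 in WT, -0.31 in dHep and -1.38 in dHSC livers. Of the 289, 215 had the same sign in dHep, 49 (17%) an unadjusted p under 0.05 in the same direction and 4 in the opposite one. The 289 include the 2 tested skeletal muscle genes, whose transcripts WT vehicle liver 1 held. Without that liver 921 genes were called in WT, 651 of them shared with the 798 of the main fit. In the reverse reading, of 343 genes higher in dHep at an unadjusted p under 0.05, 134 (39.1%) were called higher in WT (3.43% of all genes) and 87.8% had a WT log2 change above 0. Of 651 lower in dHep, 49 (7.53%) were called lower in WT (1.95% of all genes) and 69.3% were below 0 there. Without the libraries that stood apart 1.89% of genes were higher and 1.65% lower at that level.

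The difference between genotypes was tested directly. Against WT the TCDD response was more positive in dHep livers for 52 genes (0.351%) and more negative for 75 (0.506%); against dHSC it was so for 23 (0.155%) and 41 (0.276%). Of the 509 genes that rose in WT the difference was called for 70, and of the 289 that fell for 52. The choice of those genes and this difference use the same WT libraries, so these counts are not independent of the choice. Hao1, the hepatocyte glycolate oxidase, stood at 182, 60.6 and 117 CPM in dHep vehicle and 88.1, 140.1 and 86.5 CPM in dHep TCDD livers, which overlap, and fell from 144, 208 and 184 CPM to 0.412, 0.285 and 0 CPM in WT livers. Its response differed by 9.39 ± 0.90 SE (edgeR adjusted p = 8.3e-05). Col9a2, a cartilage collagen chain, stood at 0.0749, 0.833 and 0.302 CPM and 0.216, 0.126 and 0.408 CPM in dHep livers and rose from 0.0573, 0.056 and 0 CPM to 138, 191 and 118 CPM in WT livers, a difference of -12.32 ± 1.10 (edgeR adjusted p = 8.3e-05). Nptx1, a neuronal pentraxin, likewise stayed at 0.337, 1.13 and 0.528 CPM and 0.433, 0.753 and 0.817 CPM in dHep livers against 0.344, 0.224 and 0.172 CPM and 237, 129 and 124 CPM in WT livers. Ecel1, a metallopeptidase gene, had 0 counts in all 6 dHep livers and 2.7, 2.05 and 2.23 CPM in treated WT livers.

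Of the 24 genes with the largest WT changes named by the rule given under processing, Apol7c was the only one called in dHep livers, and Cyp1b1, Ahrr, Cyp1a1, Pnliprp1, Sult2a7 and Sult3a2 had an unadjusted p under 0.05. Pnliprp1, a pancreatic lipase-related gene, rose in WT livers to 26.9, 44 and 21.9 CPM but was at 0.112, 0.238 and 0.0755 CPM in dHep vehicle livers and had no count in the 3 dHep TCDD livers. Irx1, a homeobox gene, and Mmd2, a membrane protein gene, fell in WT livers (log2 changes -6.82 and -6.22) and stood at 1.46, 0.773 and 1.28 CPM and 37.6, 30.4 and 50.1 CPM with vehicle against 1.43, 2.32 and 1.56 CPM and 29.9, 18.1 and 13.8 CPM with TCDD in dHep livers.

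**Figure D5:**
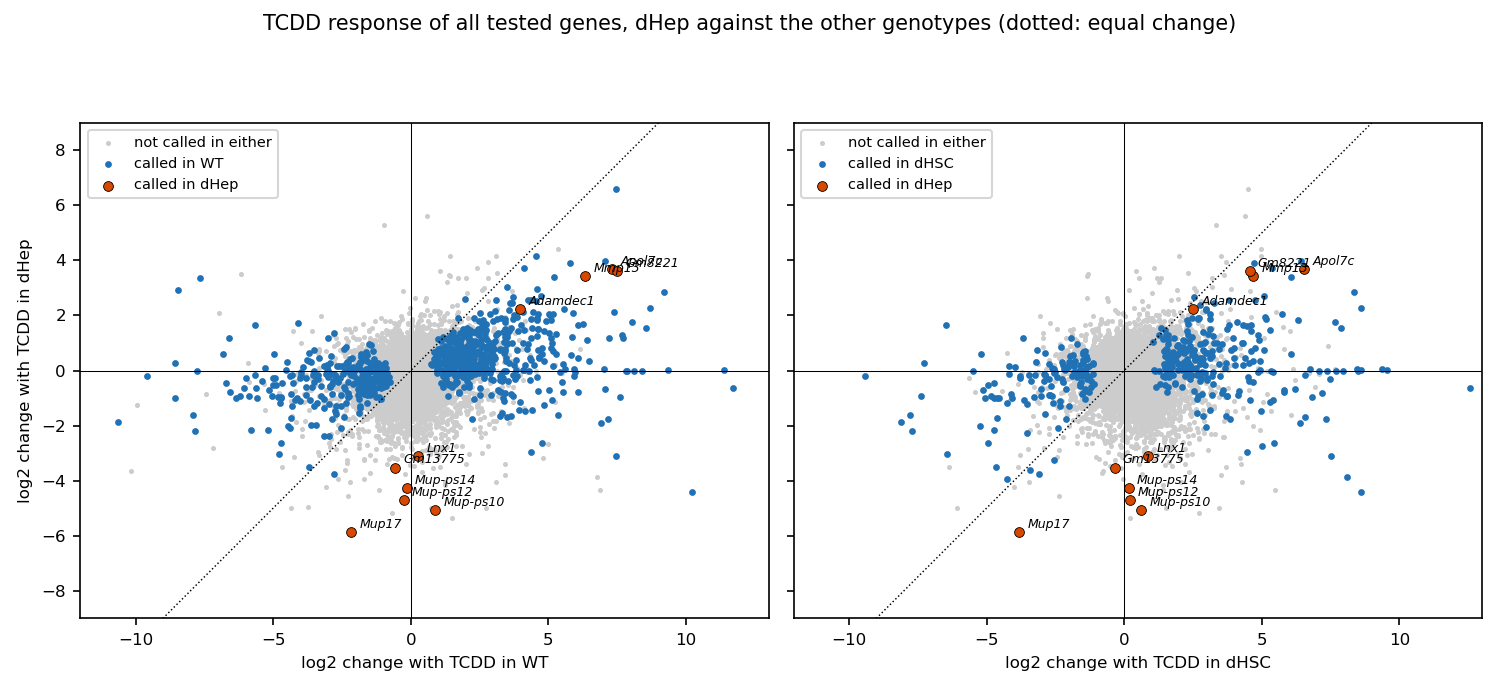
Log2 change with TCDD of the 14835 tested genes in dHep livers (y axis) against WT (left x axis) and dHSC livers (right x axis), with genes called in the genotype on the x axis in blue and the 10 called in dHep in orange. Most blue points lie close to the horizontal line of no change in dHep; the orange points that rose lie under the dotted line of equal change, and those that fell lie below it with most near 0 on the x axis.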

How the data were processed

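Liver RNA of 18 mice (3 per group, 6 groups) was analysed from the raw read counts per gene that the authors deposited, 1 table per mouse, with 55536 gene identifiers. The submitters' processing notes name GRCm38 and these tools: DESeq2 1.22.2, HTSeq 0.11.3, HISAT2 2.1.0, FastQC 0.11.9; strand handling and annotation are not given in the sources used here. Symbols came from the GENCODE annotation of that build, which held all identifiers. Counts were fitted with edgeR 4.0.16 in R 4.3.3 (TMM scaling, filterByExpr, a mean per group over all 18 libraries, quasi-likelihood test, Benjamini-Hochberg adjustment over 14835 genes, called at adjusted p under 0.05; common dispersion 0.200); the code was tested on simulated data. CPM values use TMM-scaled library sizes. Alternatives were RLE scaling, other filters, DESeq2 1.42.0, a covariate, a block, robust dispersion, fewer groups and libraries left out.

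The labels give poly-T mRNA selection. The members and the 44 gene lists (727 distinct genes, 114 of them not tested) were chosen with earlier results of these data known. Named were all called genes, then by p those with separated groups, at least 1 CPM and no predicted-gene name up to 12 each way, the 12 largest WT changes each way, the 10 largest differences between genotypes each way, and each list's called members or 2 lowest p-values; other genes were named after their values were seen.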

Additional observations from a re-analysis of the deposited data

Results flagged for a closer look

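These genes are listed because their TCDD response differed between the dHep genotype and another by the test of the difference itself. Values are differences in log2 change ± SE with edgeR's adjusted p in the fit of all 18 libraries, and no cause was tested. Far fewer differences passed the threshold without the libraries that stood apart, as given in the closing section. Which of the genes listed here remained is not given. Fitted values of genes with libraries at 0 counts, such as Pnliprp1 and Col9a2, depend on the fit and are no bounds.

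For genes called in dHep livers, the response was more negative than in WT for Gm8221 (-3.87 ± 0.87, adjusted p 0.0471), Lnx1 (-3.39 ± 0.73, adjusted p 0.0381), Mup-ps12 (-4.45 ± 0.82, adjusted p 0.0159), Gm13775 (-2.95 ± 0.65, adjusted p 0.0432), Mup-ps14 (-4.13 ± 0.76, adjusted p 0.016) and Mup-ps10 (-5.97 ± 1.05, adjusted p 0.0123). Against dHSC it was so for Lnx1 (-3.98 ± 0.73, adjusted p 0.0239), Mup-ps12 (-4.90 ± 0.82, adjusted p 0.0133), Gm13775 (-3.17 ± 0.65, adjusted p 0.0425), Mup-ps14 (-4.45 ± 0.77, adjusted p 0.0151) and Mup-ps10 (-5.70 ± 1.04, adjusted p 0.0238). Gm8221 rose in both dHep and WT livers, and the other 5 passed the threshold in neither WT nor dHSC livers.

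Genes that TCDD raised elsewhere had a more negative response in dHep livers. Against WT these were the AHR targets Cyp1b1 (-6.33 ± 0.82, adjusted p 0.00156), Cyp1a1 (-6.44 ± 1.02, adjusted p 0.00582) and Ahrr (-6.28 ± 0.76, adjusted p 9.32e-04), the collagen genes Col9a2 (-12.32 ± 1.10, adjusted p 8.3e-05) and Col4a3 (-7.35 ± 1.42, adjusted p 0.021), and Pnliprp1 (-14.65 ± 1.69, adjusted p 0.00105), Nptx1 (-9.32 ± 0.96, adjusted p 1.20e-04), Gipc2 (-7.73 ± 1.08, adjusted p 0.0026), Pdzrn3 (-7.41 ± 1.15, adjusted p 0.00513) and Fabp12 (-6.33 ± 0.84, adjusted p 0.00158). Against dHSC they were Cyp1b1 (-5.49 ± 0.81, adjusted p 0.00514), Cyp1a1 (-6.33 ± 1.02, adjusted p 0.00899), Col9a2 (-13.18 ± 1.16, adjusted p 6.51e-05), Col4a3 (-7.44 ± 1.40, adjusted p 0.0266), Pnliprp1 (-13.02 ± 1.64, adjusted p 0.00252), Nptx1 (-9.54 ± 0.97, adjusted p 9.78e-05), Gipc2 (-6.86 ± 1.08, adjusted p 0.00818), Pdzrn3 (-8.07 ± 1.16, adjusted p 0.00426), Fabp12 (-6.61 ± 0.84, adjusted p 0.00163), Ism2 (-6.48 ± 0.62, adjusted p 9.24e-05) and Hrk (-6.46 ± 1.04, adjusted p 0.0092).

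Genes that TCDD lowered elsewhere had a more positive response in dHep livers. Against WT these were Hao1 (9.39 ± 0.90, adjusted p 8.3e-05), the sulfotransferases Sult3a2 (8.78 ± 1.65, adjusted p 0.0179), Sult3a1 (7.56 ± 1.48, adjusted p 0.0224) and Sult2a7 (6.28 ± 0.97, adjusted p 0.00513), the female-biased cytochrome Cyp2c69 (5.38 ± 0.89, adjusted p 0.00845), and Irx1 (7.40 ± 1.18, adjusted p 0.00582), Dsg1c (5.81 ± 1.01, adjusted p 0.0115), Serpina1e (5.34 ± 0.99, adjusted p 0.0159), Mmd2 (5.29 ± 0.87, adjusted p 0.00805) and Susd4 (5.03 ± 0.84, adjusted p 0.00932). Against dHSC they were Hao1 (9.22 ± 0.91, adjusted p 9.24e-05), Sult2a7 (6.16 ± 0.97, adjusted p 0.00818), Irx1 (5.79 ± 1.08, adjusted p 0.0266), Mmd2 (6.46 ± 0.95, adjusted p 0.00514), Serpina7 (4.84 ± 0.89, adjusted p 0.0239), Mup3 (4.42 ± 0.86, adjusted p 0.0319), Nxph1 (4.42 ± 0.90, adjusted p 0.0406), E2f8 (4.33 ± 0.78, adjusted p 0.0221), St6galnac6 (4.09 ± 0.68, adjusted p 0.0126) and Ces3a (3.52 ± 0.65, adjusted p 0.0238).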

How the results depend on the processing

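The count of 10 called genes in dHep livers became 19 without a filter on low counts, 84 with DESeq2, 41 with a covariate for the non-coding share of each library, 0 without the 5 libraries that stood apart and 0 with the 6 dHep libraries fitted alone; leaving out 1 dHep library at a time gave 0 to 11 (0 without TCDD liver 4, 1 without TCDD liver 16, 2 without TCDD liver 10, 3 without vehicle liver 15), and leaving out WT vehicle liver 1, which enters through the shared spread, gave 17. The 127 genes that differed from WT became 288 with DESeq2, 227 with the covariate and 19 without the libraries that stood apart (51 to 130 leaving out 1 library of the groups compared, as in the ranges that follow). The 64 that differed from dHSC became 225, 131 and 13 in those settings and 27 with only the 4 groups compared (24 to 61). In WT the 798 calls became 1336, 1926 and 1584 (445 to 921), and in dHSC the 379 became 716, 792 and 214, and 75 with those groups alone (169 to 297). The 10 called genes kept their sign. Some genes that were not called did not: Krt19 ranged from -2.95 to 1.25, Col9a2 from -1.22 to 1.18, Nptx1 from -0.44 to 0.77 and Hao1 from -0.67 to 0.24. The dHep medians of genes called in WT stayed within 0.387 to 0.760 (higher) and -0.379 to -0.200 (lower). The labels pair no mice, since no number is shared; the number sets 1 to 6, 7 to 12 and 13 to 18, 1 mouse of each group in a set, fitted as a block gave 11 calls in dHep, 9 of them shared. With 3 mice a group and 2 of 3 dHep controls standing apart, a gene that missed the threshold is not shown to be unaffected. The 4 genes that rose kept log2 changes of at least 1.91.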
